A study of Homo sapiens with 15 samples.

Results

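The genes described here are 10 transcription factors that cells switch on in response to outside signals: the FOS family (FOS, FOSB, FOSL1 and FOSL2), the JUN family (JUN, JUNB and JUND), ATF3, MAFF and EGR1. They were chosen by name, with earlier results of these data known, as members of the AP-1 group and its relatives plus EGR1. All 10 were listed and tested in both count tables of the study, of 15230 genes in one table and 12575 in the other. AP-1 is a dimer of basic leucine zipper proteins: JUN proteins pair with themselves or with FOS proteins, whereas FOS proteins need a partner, and the pair made sets which genes are switched on or off. FOS, FOSB, JUNB, ATF3 and EGR1 are classic immediate early genes, whose transcripts appear within minutes of a growth factor, serum or stress and soon decay. EGR1 is a zinc finger factor outside AP-1 that is driven by the same kinase pathways, and in astrocytes these genes are known for their response to injury, growth factors and cytokines.

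Transcripts of immortalized human astrocytes (IHA), a fetal cell line established with SV40, were counted by bulk MARS-seq, which reads the 3′ ends of RNA and uses unique molecular identifiers (UMIs) so that each molecule counts once. Doxycycline at 1 µg/ml induced mutant IDH1, named in the design text as IDH1-R132H, while the genotype label of every sample reads WT IDH1. The 15 samples were 6 without doxycycline (3 of batch b1 and 3 of batch b2), 4 at day 3 (all b2) and 5 at day 7 (1 of b1 and 4 of b2), b1 and b2 being tags in the sample titles. All groups grew in the same medium with serum and EGF, which is itself an inducer of these genes. Doxycycline was never given to cells lacking the inducible gene, and the untreated samples carry no day, so mutant IDH1, the drug and time in culture cannot be told apart. Nothing in the labels says that the samples of 1 group came from separate cultures, and p-values then measure only the spread between these samples.

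Depth in the day 7 table was 2573290 to 5567651 UMIs. The table of day 3 and day 7 covers b2 alone, at 1816599 to 4656705 UMIs. There the 4 day 3 libraries, at 1816599 to 2725520 UMIs, were all shallower than the 4 day 7 libraries, at 2892448 to 4656705 UMIs. The tables share 7 libraries and were counted separately, so levels were compared only within a table. IDH1 itself had a log2 change of 0.22 ± 0.11 (SE) at day 7 (edgeR adjusted p = 0.178) and 0.21 ± 0.14 at day 3 (edgeR adjusted p = 0.494). Its count is no check of the induction, since a 3′ tag misses a transgene with another 3′ end and does not tell mutant from normal transcripts, and the sources used here do not describe the construct. Of 11 astrocyte markers 7 were listed, led by VIM and CD44, whereas GFAP, AQP4, ALDH1L1 and SLC1A2 were in neither table. Of 6 fibroblast and pericyte markers 4 were listed, led in the day 7 table by COL1A1, with a summed level of 837 to 883 CPM (UMI counts scaled to library size, with TMM factors) in untreated b2 libraries and 447 to 650 CPM at day 7 in b2. In b1 their summed level was 992 to 1072 CPM without doxycycline and 991 CPM in the day 7 library. DCN and LUM were not listed. Of 6 neuron markers 3 were listed in each table. In the table of day 3 and day 7 their summed level was 78.2 to 91.8 CPM without doxycycline, 120 to 134 CPM at day 3 and 107 to 169 CPM at day 7, most of it TUBB3, a tubulin. TUBB3 was called there at day 3 (log2 change 0.72 ± 0.16, edgeR adjusted p = 0.0297) and at day 7 (0.68 ± 0.16, edgeR adjusted p = 0.0109), while RBFOX3 and STMN2 were in neither table. The part of these markers in the results below was not tested, and in bulk RNA fewer cells of a kind and less RNA per cell cannot be told apart.

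Promoters are shown for 5 members, chosen after the values and the motif counts were seen: EGR1, JUN, JUND and MAFF among the 6 whose windows hold a match, and FOSB, the largest rise at day 7 among the 10, as one whose window holds none. RefSeq windows (GRCh38.p14) from 250 bases before to 50 bases after a gene's start matched 9 of the 10 members, in 11 windows, with none for FOSL1. Capitals mark a match to one of 5 motifs searched on both strands: the serum response element (CArG box), the AP-1 site TGAGTCA or TGACTCA, the cyclic AMP response element TGACGTCA, the JUN and ATF2 site TGACATCA, and the EGR site GCGGGGGCG or GCGTGGGCG. EGR1 lies at chr5:138465229-138465528 on the plus strand, JUN at chr1:58783998-58784297 on the minus strand, JUND at chr19:18281573-18281872 on the minus strand, MAFF (the window further upstream of its 2) at chr22:38201744-38202043 on the plus strand, and FOSB at chr19:45467746-45468045 on the plus strand.
EGR1: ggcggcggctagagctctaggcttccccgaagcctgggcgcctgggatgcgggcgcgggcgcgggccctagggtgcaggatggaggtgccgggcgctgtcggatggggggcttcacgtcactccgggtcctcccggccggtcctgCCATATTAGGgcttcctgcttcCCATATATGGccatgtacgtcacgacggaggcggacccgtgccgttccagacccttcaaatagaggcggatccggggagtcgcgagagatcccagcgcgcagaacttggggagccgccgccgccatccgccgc
JUN: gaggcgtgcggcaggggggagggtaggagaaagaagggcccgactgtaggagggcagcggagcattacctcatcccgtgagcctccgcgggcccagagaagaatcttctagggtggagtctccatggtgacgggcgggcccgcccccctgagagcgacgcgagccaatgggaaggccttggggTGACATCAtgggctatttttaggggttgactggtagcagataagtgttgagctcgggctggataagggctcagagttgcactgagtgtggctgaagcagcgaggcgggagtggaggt
JUND: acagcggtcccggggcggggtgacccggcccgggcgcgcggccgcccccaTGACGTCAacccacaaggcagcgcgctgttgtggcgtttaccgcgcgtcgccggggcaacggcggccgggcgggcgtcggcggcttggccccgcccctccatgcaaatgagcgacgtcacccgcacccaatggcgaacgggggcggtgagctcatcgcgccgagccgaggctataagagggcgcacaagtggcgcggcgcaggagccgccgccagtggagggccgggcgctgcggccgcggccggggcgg
MAFF: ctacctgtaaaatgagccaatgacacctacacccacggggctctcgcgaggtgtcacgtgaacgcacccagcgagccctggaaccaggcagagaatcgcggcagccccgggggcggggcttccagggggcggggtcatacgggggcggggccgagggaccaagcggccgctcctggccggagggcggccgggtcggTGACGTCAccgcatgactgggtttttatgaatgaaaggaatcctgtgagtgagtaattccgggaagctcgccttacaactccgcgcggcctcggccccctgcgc
FOSB: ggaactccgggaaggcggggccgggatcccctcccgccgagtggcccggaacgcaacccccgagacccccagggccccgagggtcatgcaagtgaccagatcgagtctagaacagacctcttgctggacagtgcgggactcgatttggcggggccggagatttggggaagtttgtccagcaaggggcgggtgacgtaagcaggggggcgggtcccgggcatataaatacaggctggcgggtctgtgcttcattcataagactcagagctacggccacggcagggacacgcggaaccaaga

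The EGR1 window held 2 CArG boxes, from 105 to 96 and from 83 to 74 bases before the start, a motif in 1.29% of 35116 promoter windows of this length. JUN held the JUN and ATF2 site from 67 to 60 bases before its start, as did ATF3 from 123 to 116 bases before the start of its upstream window, and 2.61% of all windows held it. JUND, from 200 to 193 bases before its start, and MAFF, from 54 to 47 before, held the cyclic AMP response element, which 1.85% of windows held. FOSL2 held an AP-1 site just after its start (4.95% of windows), and FOS, FOSB, JUNB, the other ATF3 window and the other MAFF window held no match. No member held an EGR site (5.77% of windows). A match describes the letters in the window and says nothing of binding in these cells. Variant spellings and sites outside the window were not searched, so no match does not mean that a gene lacks such an element.

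At day 7, the question being what differs after a week of doxycycline, 6 of the 10 genes passed the test, against 15.7% of all 12449 genes tested (edgeR quasi-likelihood test with a batch term, Benjamini-Hochberg adjusted p under 0.05). FOS, FOSB, FOSL1, JUN and MAFF were higher, so 5 of 10 rose against 8.43% of all genes. JUND was lower, 1 of 10 against 7.28%. The median log2 change of the 10 was 0.29, beside -0.02 over all genes tested. The 10 were chosen with earlier results of these data known, so these shares are a description and no test of the group. The rises were modest for the abundant genes, near 1.2-fold for FOSL1, JUN and MAFF, and larger for the scarce FOS and FOSB.

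FOSL1 (chromosome 11, 65892049 to 65900573, minus strand, GRCh38), also called FRA1, is induced later than FOS, lasts longer and is often high in invasive cells. In b2 it stood at 315, 329 and 338 CPM without doxycycline and at 409, 413, 429 and 448 CPM at day 7. The groups of b2 did not overlap. In b1 the untreated libraries were at 437, 484 and 505 CPM and the single day 7 library at 512 CPM, only just above them. With both batches in the fit the log2 change was 0.30 ± 0.07 (SE), with an edgeR adjusted p of 0.0043. In b2 alone it was 0.38 ± 0.07 (edgeR adjusted p = 0.000334) and in b1 0.11 ± 0.10 (edgeR adjusted p = 0.584), and the difference between the batches did not pass (edgeR adjusted p = 0.276). Without the batch term the value was 0.15 with an edgeR adjusted p of 0.674, since untreated FOSL1 was higher in b1, at 476 ± 34.9 CPM (SD, n = 3), than in b2, at 327 ± 11.6 CPM (SD, n = 3).

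FOS (chromosome 14, 75278774 to 75282230, plus strand) and FOSB (chromosome 19, 45467995 to 45475179, plus strand) are the short-lived immediate early members. FOS had 4.55, 4.61 and 5.76 CPM in untreated b2 libraries and 4.81, 7.78, 8.25 and 9.42 CPM at day 7. Library 17 of day 7 fell among the untreated ones, the other 3 above them. In b1 it had 6.43, 6.63 and 8.58 CPM without doxycycline and 14.3 CPM in the day 7 library, the highest level in this table. These levels rest on 16 to 54 UMIs per library. FOSB rested on fewer still, 5 to 20 UMIs. It had 1.21, 1.64 and 2.88 CPM without doxycycline and 3.21, 3.49, 4.46 and 4.90 CPM at day 7 in b2, with 1.95, 2.21 and 2.22 against 7.57 CPM in b1. In the day 7 table FOSB thus did not overlap between untreated and day 7 libraries in either batch. When the b2 libraries were counted in the table of day 3 and day 7, the FOSB groups did overlap. There it had 1.19, 2.00 and 3.48 CPM without doxycycline and 2.60, 3.39, 4.69 and 5.56 CPM at day 7. The log2 change of FOS was 0.77 ± 0.20 (edgeR adjusted p = 0.0099), a 1.71-fold rise, and that of FOSB 1.39 ± 0.28 (edgeR adjusted p = 0.0018), a 2.61-fold rise. Leaving out the single b1 day 7 library took FOS to 0.67 with an edgeR adjusted p of 0.0605, while FOSB kept its call without any 1 library.

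FOSL2 (chromosome 2, 28392448 to 28417312, plus strand), or FRA2, is the closest relative of FOSL1. It stood at 12.6, 14.0 and 14.1 CPM in untreated b2 libraries and at 12.8, 18.7, 20.2 and 22.3 CPM at day 7. Library 17 again lay with the untreated ones. In b1 the values were 15.7, 16.0 and 17.3 CPM without doxycycline and 19.1 CPM at day 7. Its log2 change of 0.40 ± 0.15 did not pass (edgeR adjusted p = 0.0634). It passed without day 7 library 17 of b2, at 0.51 (edgeR adjusted p = 0.0125), and without the b1 day 7 library, at 0.49 (edgeR adjusted p = 0.0494).

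Each UMI marks 1 transcript end, so UMIs were added within a family without division by gene length. FOSL1 made up most FOS family transcripts throughout: 94.1% ± 0.45 (SD, n = 3) in untreated b2 libraries and 93.4% ± 1.47 (SD, n = 4) at day 7 in b2 of the day 7 table. FOS and FOSB, for all their larger fold changes, made up 1.67% ± 0.44 and 0.89% ± 0.20 of the family's UMIs at day 7 in b2 (SD, n = 4).

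**Figure D1:**
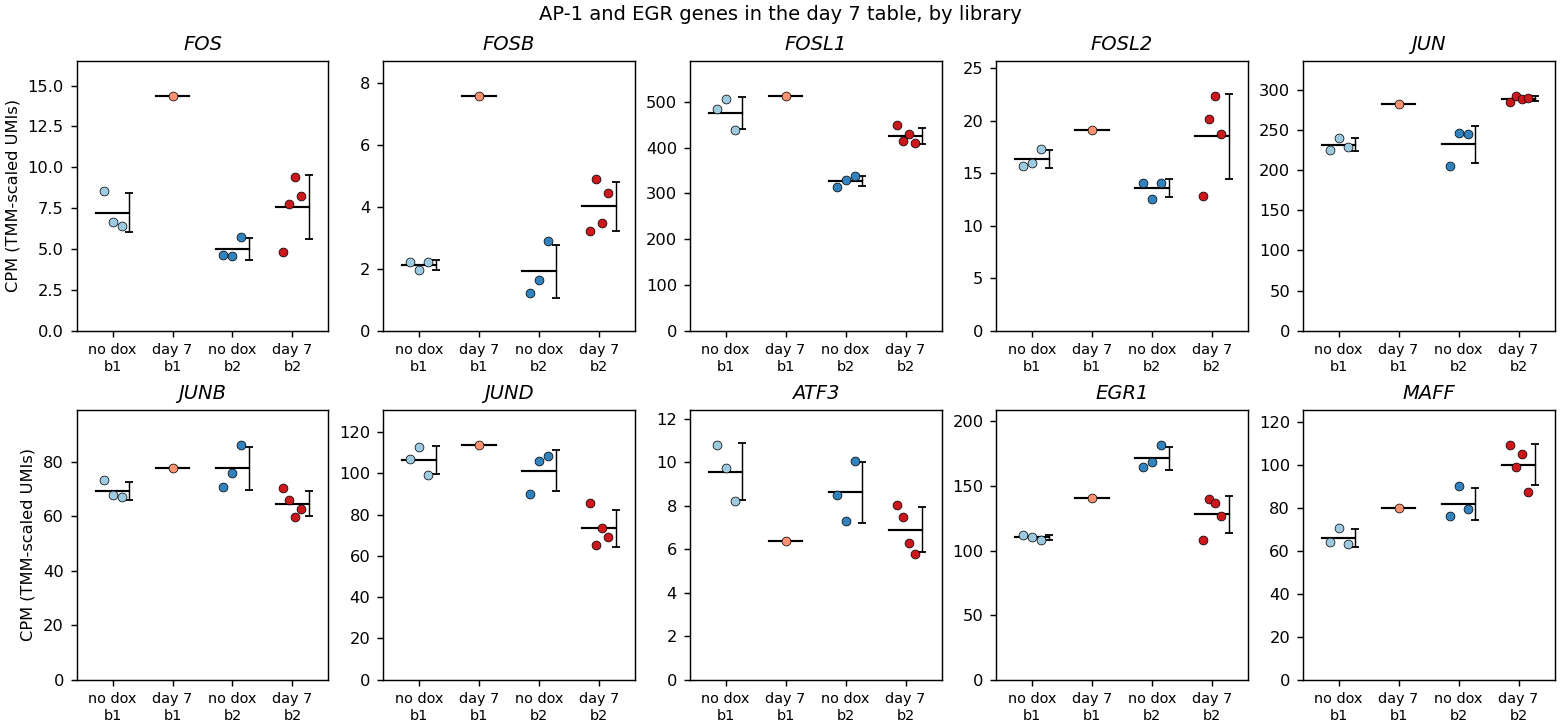
Level of each of the 10 genes (vertical axes from 0, CPM from TMM-scaled UMI counts) in every library of the day 7 table. Points are libraries, lines the group mean and bars the SD (3 untreated libraries of b1, 1 of day 7 in b1, 3 untreated of b2, 4 of day 7 in b2). JUN lies higher at day 7 in both batches, JUND lies lower at day 7 in b2, and EGR1 lies on opposite sides of its controls in b1 and b2.

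JUN (chromosome 1, 58780788 to 58784327, minus strand) is the main transactivating partner of FOS proteins. Its levels were 205, 245 and 246 CPM without doxycycline and 285, 288, 290 and 292 CPM at day 7 in b2. In b1 they were 225, 229 and 240 CPM against 283 CPM. Every day 7 library lay above every untreated library, and the 4 day 7 libraries of b2 were close together, at 289 ± 2.76 CPM (SD, n = 4). The log2 change was 0.31 ± 0.07, 1.24-fold, with an edgeR adjusted p of 0.0023, and it was alike in size in b2 (0.33 ± 0.07, edgeR adjusted p = 0.0028) and in b1 (0.29 ± 0.11, edgeR adjusted p = 0.114). JUN kept its call at day 7 under every alternative run.

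JUND (chromosome 19, 18279760 to 18281622, minus strand) is the member that resting cells express and is known to restrain growth in fibroblasts. In b2 it stood at 89.8, 106 and 108 CPM without doxycycline and at 65.1, 68.9, 73.3 and 85.8 CPM at day 7. All 4 day 7 libraries of b2 were below all 3 controls. In b1 the controls were at 99.1, 107 and 113 CPM and the day 7 library at 114 CPM, at their upper end. Over both batches the log2 change was -0.30 ± 0.10 with an edgeR adjusted p of 0.0493. Within b2 it was -0.46 ± 0.10 (edgeR adjusted p = 0.0014) and within b1 0.10 ± 0.15 (edgeR adjusted p = 0.736), and the difference between the batches, -0.56 ± 0.18, did not pass (edgeR adjusted p = 0.0858). The call over both batches was lost on leaving out any 1 of 8 of the 11 libraries (all but the b1 day 7 library, day 7 library 17 of b2 and untreated library 3 of b1), with edgeR adjusted p of 0.0623 to 0.162, and with DESeq2 (adjusted p = 0.0873). It was also lost with RLE size factors in place of TMM, without the filter on low counts and without the batch term (edgeR adjusted p = 0.0607, 0.0568 and 0.225).

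JUNB (chromosome 19, 12791496 to 12793315, plus strand), a weaker activator that can oppose JUN, was not called at day 7 and had opposite signs in the batches. It had 70.9, 75.8 and 86.1 CPM in untreated b2 libraries against 59.8, 62.7, 66.0 and 70.3 CPM at day 7, and 67.2, 67.8 and 73.3 against 77.7 CPM in b1. In b2 the day 7 libraries thus lay below the untreated ones by a small gap, and in b1 the day 7 library lay above. The log2 change of -0.14 ± 0.09 over both batches did not pass (edgeR adjusted p = 0.318), nor did the value in b2, -0.25 ± 0.09 (edgeR adjusted p = 0.0668). In b1, with its single day 7 library, the log2 change was 0.16.

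The makeup of the JUN family also differed between the b2 groups. JUN held 56.4% ± 0.93 (SD, n = 3) of JUN, JUNB and JUND UMIs in untreated b2 libraries and 67.7% ± 2.07 (SD, n = 4) at day 7. The share of JUND went from 24.7% ± 0.11 to 17.1% ± 1.73, and that of JUNB from 18.9% ± 1.01 to 15.2% ± 0.77. In b1 the share of JUN was 56.8% ± 1.23 (SD, n = 3) without doxycycline and 59.6% in the day 7 library, with a 95% Wilson interval of 56.8% to 62.4% over 1189 UMIs, which covers counting error only. In the b2 table JUN held 56.8% ± 3.17 (SD, n = 4) at day 3, with a range of 53.4% to 60.6%, below every day 7 library (64.2% to 68.4%) and around the untreated 56.1% ± 1.10 (SD, n = 3). These shares were described without a test.

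**Figure D2:**
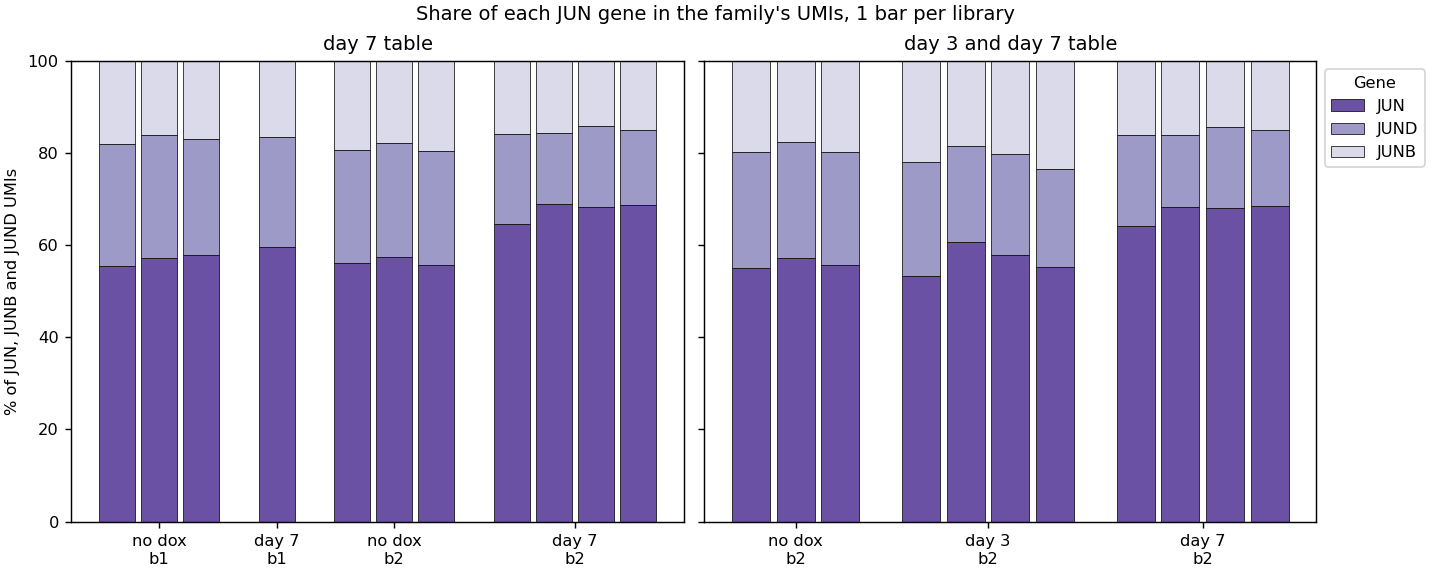
Share of JUN, JUND and JUNB in the family's UMIs (vertical axis, percent from 0 to 100), 1 bar per library, for the day 7 table (left) and the table of day 3 and day 7 (right). JUN takes 64.6% to 69.0% in the 4 day 7 libraries of b2 and 59.6% in that of b1. At day 3 its share lies around the untreated one. JUND takes 21.0% to 24.7% at day 3 and 24.4% to 25.2% in the untreated libraries of the same table. JUNB takes 18.4% to 23.5% and 17.6% to 19.8%.

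MAFF (chromosome 22, 38200767 to 38216511, plus strand), a small MAF protein without an activation domain that pairs with other leucine zipper factors, was higher at day 7 in both batches. It had 76.2, 79.2 and 90.2 CPM without doxycycline and 87.2, 98.8, 105 and 109 CPM at day 7 in b2, where library 20 fell within the untreated range. In b1 it had 63.2, 64.0 and 70.5 CPM against 79.7 CPM. The log2 change was 0.28 ± 0.08 (edgeR adjusted p = 0.0213), with 0.29 ± 0.09 in b2 (edgeR adjusted p = 0.0318) and 0.28 ± 0.15 in b1 (edgeR adjusted p = 0.285). The call was lost without untreated library 1 of b2 (0.25, edgeR adjusted p = 0.0831) or library 4 of b2 (0.27, edgeR adjusted p = 0.0549), and with scaling by library size alone (0.21, edgeR adjusted p = 0.0808).

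ATF3 (chromosome 1, 212565334 to 212620777, plus strand), a stress-induced factor that often represses, was scarce, with 16 to 44 UMIs per library in the day 7 table. It had 7.29, 8.50 and 10.1 CPM in untreated b2 libraries and 5.80, 6.28, 7.49 and 8.02 CPM at day 7, with 8.20, 9.74 and 10.8 against 6.38 CPM in b1. Most day 7 libraries were low, but the b2 groups overlapped. The log2 change was -0.37 ± 0.18 and did not pass (edgeR adjusted p = 0.171).

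EGR1 (chromosome 5, 138465490 to 138469315, plus strand) had day 7 differences of opposite sign in the batches. In b2 it stood at 165, 168 and 182 CPM without doxycycline and at 108, 127, 137 and 140 CPM at day 7, all 4 below all 3 controls. In b1 it stood at 108, 110 and 112 CPM without doxycycline and at 141 CPM in the day 7 library, above all 3 controls. Within b2 the log2 change was -0.41 ± 0.08 (edgeR adjusted p = 0.0011) and within b1 0.36 ± 0.13 (edgeR adjusted p = 0.104). The difference between the batches, -0.76 ± 0.16, passed (edgeR adjusted p = 0.0061). Of the 10 genes EGR1 was the only one with such a difference, against 2.44% of 13371 genes tested for it. With both batches in the fit the log2 change was -0.19 ± 0.11 (edgeR adjusted p = 0.271), and without the b1 day 7 library it was -0.40 (edgeR adjusted p = 0.0015).

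The untreated levels of EGR1 were themselves apart: 110 ± 2.12 CPM (SD, n = 3) in b1 and 171 ± 8.88 CPM (SD, n = 3) in b2, whereas the day 7 mean of b2, 128 ± 14.4 CPM (SD, n = 4), and the day 7 library of b1, at 141 CPM, lay between these means. Day 7 library 17 of b2, at 108 CPM, lay within the untreated b1 range. What set the untreated batches apart was not tested. Within b2, 6 of the 10 genes were called (FOSB, FOSL1, JUN and MAFF higher, JUND and EGR1 lower), against 14.3% of 13371 genes, and FOS had 0.67 ± 0.24 with an edgeR adjusted p of 0.0624. Within b1, where 1 library was compared with 3 and was assumed to vary like the others, FOSB alone was called, at 1.81 ± 0.47 (edgeR adjusted p = 0.0191), against 6.94% of genes.

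**Figure D3:**
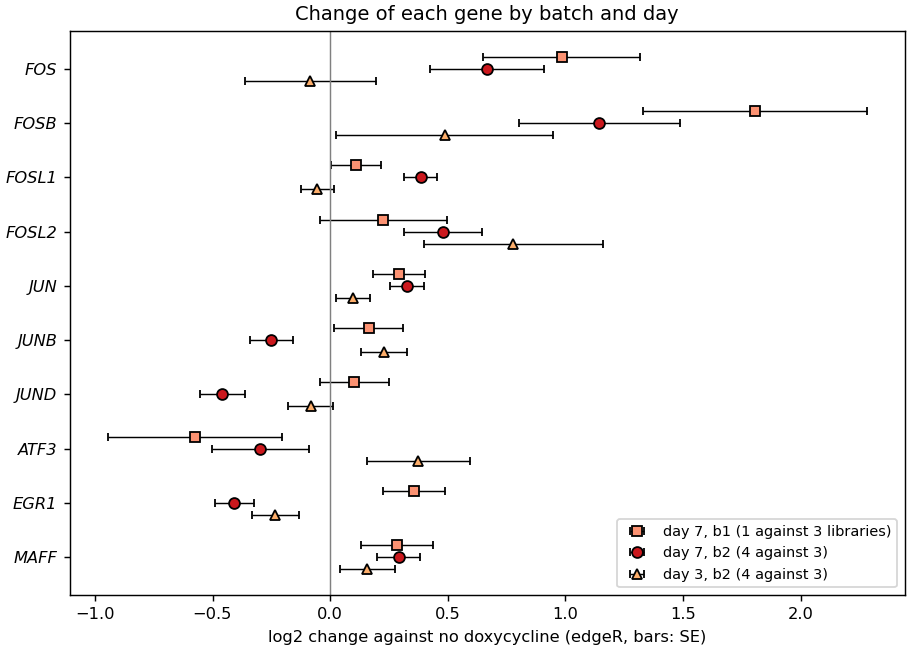
Change of each gene against untreated libraries (horizontal axis, log2 from edgeR, bars SE) at day 7 in b1 (squares), at day 7 in b2 (circles) and at day 3 in b2 (triangles). EGR1 is at 0.36 in b1 and -0.41 in b2 at day 7. JUN and MAFF have near-equal values in the batches.

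The second table counted the b2 libraries anew. With its counts, 4 of the 10 genes were called at day 7 against 15.6% of 10586 genes. FOSL1 (0.36 ± 0.07, edgeR adjusted p = 0.000483) and JUN (0.30 ± 0.07, edgeR adjusted p = 0.0036) were higher. JUND (-0.47 ± 0.09, edgeR adjusted p = 0.000711) and EGR1 (-0.43 ± 0.10, edgeR adjusted p = 0.0036) were lower. The same libraries underlie both tables, so this is a check of the counting and no replicate. FOSB (0.93 ± 0.40, edgeR adjusted p = 0.118) and MAFF (0.26 ± 0.11, edgeR adjusted p = 0.131) missed the threshold there.

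FOSL2 was counted very differently in the day 7 table and in the table that adds day 3. Over the 7 shared libraries it had 496 UMIs in the first and 81 in the second, a ratio of 0.163. The other 9 members had ratios of 0.860 to 1.03, and the median over 11385 genes was 0.952. Its absolute level, and its share of the family, therefore depended on the table. GENCODE v29 places AC104695.3 on the same strand and FLJ31356 on the opposite strand over FOSL2, and ERCC1, HOOK2 and PLA2G6 on the opposite strand over FOSB, JUNB and MAFF. The sources used here do not say whether the counting used strand, so reads of these pairs may not be separated.

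At day 3, which asks how early the genes change, none of the 10 was called by edgeR, against 3.51% of 10586 genes. At an unadjusted p under 0.05 there were 2, JUNB and EGR1, against 1746 of all 10586 genes. DESeq2 and limma-voom called none of the 10. The median log2 change of the 10 was 0.13, beside 0.00 over all genes. FOSL1 had 383, 400 and 412 CPM without doxycycline and 355, 374, 388 and 414 CPM at day 3, which overlapped, and its log2 change was -0.05 ± 0.07 with an approximate 95% interval of -0.19 to 0.08. JUN had 254, 301 and 304 CPM against 296, 297, 305 and 326 CPM, a log2 change of 0.10 ± 0.07 with an interval of -0.04 to 0.24. These intervals leave out the day 7 values of FOSL1 and JUN in the same counts, 0.36 and 0.30. The day 7 value of JUN has its own interval, 0.16 to 0.44, which overlaps that of day 3. The direct test of day 7 against day 3, given below, passed for FOSL1 and not for JUN. EGR1 had 206, 210 and 222 CPM against 145, 178, 190 and 208 CPM, with 3 of 4 day 3 libraries below the controls, and its log2 change of -0.23 ± 0.10 had an edgeR adjusted p of 0.221. FOSB and FOSL2, with 4 to 9 and 6 to 16 UMIs per library at day 3, had intervals from -0.42 to 1.39 and from 0.03 to 1.53, and the day 7 changes of both genes lie within them. The log2 changes of the other 5 genes were -0.08 (FOS and JUND), 0.16 (MAFF), 0.23 (JUNB) and 0.37 (ATF3), with edgeR adjusted p of 0.228 to 0.934.

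Day 7 was then set against day 3 directly, within b2 and without the controls entering the contrast. Of the 10 genes 4 were called, against 5.07% of 10586 genes. FOSL1 rose, 1 of 10 against 2.76% of genes. JUNB, JUND and ATF3 fell, 3 of 10 against 2.31%. The median over the 10 was -0.05, beside 0.01 over all genes.

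FOSL1 had 355, 374, 388 and 414 CPM at day 3 and 478, 502, 520 and 543 CPM at day 7, with no overlap, and a log2 change of 0.41 ± 0.06 (edgeR adjusted p = 8.8e-05). JUNB had 98.7, 103, 122 and 130 CPM at day 3 and 74.5, 75.3, 83.7 and 88.3 CPM at day 7, likewise with no overlap, and fell by 0.50 ± 0.09 (edgeR adjusted p = 0.000945). Untreated JUNB, at 90.7, 93.5 and 107 CPM, overlapped day 3 and lay above day 7, and neither day passed the test against it (edgeR adjusted p = 0.228 at day 3 and 0.0625 at day 7). JUND had 112, 113, 118 and 137 CPM at day 3, as its controls had (116, 131 and 133 CPM), and 80.9, 84.4, 91.7 and 108 CPM at day 7. It fell by 0.39 ± 0.09 (edgeR adjusted p = 0.0080).

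ATF3 had 9.08, 11.3, 12.2 and 14.6 CPM at day 3 and 5.47, 7.00, 7.46 and 7.99 CPM at day 7, and the controls, at 7.80, 9.22 and 10.4 CPM, overlapped both. The day 3 and day 7 libraries did not overlap, and the fall was 0.75 ± 0.21 (edgeR adjusted p = 0.0336) on 21 to 33 UMIs per library. Its call was lost without day 3 library 9, 10 or 11 or day 7 library 19 or 20 (edgeR adjusted p of 0.0672 to 0.118), and with DESeq2 (adjusted p = 0.0908). JUN was 0.20 ± 0.07 higher at day 7 than at day 3, with 346, 352, 354 and 356 CPM above 296 to 326 CPM, and did not pass (edgeR adjusted p = 0.0731). FOS did not pass either (0.70 ± 0.24, edgeR adjusted p = 0.0888), but did without day 7 library 17 (0.84, edgeR adjusted p = 0.0239). The remaining genes had log2 changes of 0.45 (FOSB), -0.22 (FOSL2), -0.19 (EGR1) and 0.10 (MAFF), with edgeR adjusted p of 0.264 to 0.781.

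**Figure D4:**
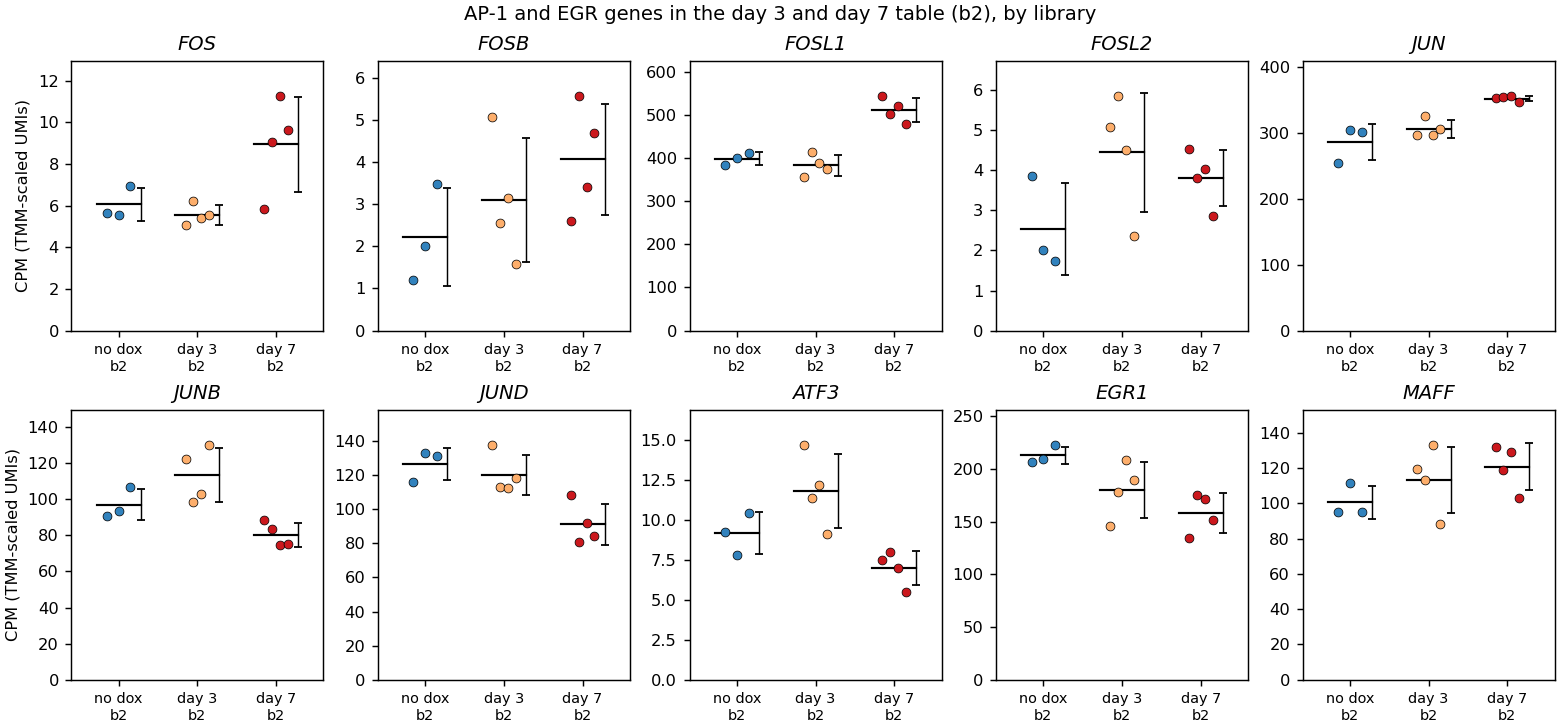
Level of each of the 10 genes (vertical axes from 0, CPM) in every b2 library of the table of day 3 and day 7: 3 untreated, 4 at day 3 and 4 at day 7. Lines are means and bars SD. JUNB and ATF3 have their highest mean at day 3 and their lowest mean at day 7, with controls that overlap the day 3 libraries, and FOSL1 is highest at day 7.

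In the authors' deposited table for day 7, sign turned to day 7 over untreated, JUN had a log2 change of 0.33 (adjusted p = 4.07e-05) and JUND -0.28 (adjusted p = 0.111). In the authors' deposited table of b2 libraries, EGR1 had -0.43 at day 7 (adjusted p = 0.00189), and ATF3 had -0.76 from day 3 to day 7 (adjusted p = 0.117). JUND over both batches and ATF3 from day 3 to day 7 were thus called here but not there.

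The genes whose levels most resembled those of the called, abundant members over the 11 b2 libraries were then listed, among the 6273 genes that averaged 20 CPM or more (Pearson's r of log2 CPM, a description over libraries that share groups and processing). FOSL1 was most like BYSL (r = 0.959), a ribosome assembly factor, and LY6K (r = 0.954), a surface antigen. JUN was most like ARPC1B (r = 0.962), a subunit of the actin-nucleating ARP2/3 complex, and AUP1 (r = 0.933), a protein of lipid droplets and the endoplasmic reticulum. JUND was most like HLA-B (r = 0.938), which presents antigen, and MKNK2 (r = 0.938), a kinase of the translation factor eIF4E. MAFF was less closely matched, by SLC52A2 (r = 0.875), a riboflavin transporter, and ANGEL2 (r = 0.859).

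The other genes of the pathway were taken by lists written with earlier results of these data known. Of 19 tested AP-1 targets, 13 rose at day 7 and 1 fell, with a median log2 change of 0.60. For comparison with each of these lists, over all genes tested 8.43% rose and 7.28% fell at day 7, with a median of -0.02. At day 3 3.51% of genes were called, and from day 3 to day 7 2.76% rose and 2.31% fell. LIF, a cytokine of the IL6 family, had 68.9 ± 3.39 CPM (SD, n = 3) without doxycycline and 118 ± 4.29 CPM (SD, n = 4) at day 7 in b2. Over both batches it rose by 0.89 ± 0.08 (edgeR adjusted p = 5.61e-08) and PLAU, the urokinase protease, by 0.66 ± 0.07 (edgeR adjusted p = 8.23e-07). At day 3, 3 of 18 rose (VEGFA, IL11 and IL6) and none fell, with a median of 0.12. From day 3 to day 7, 11 of 18 rose and 1 fell, with LIF at 0.57 ± 0.07 (edgeR adjusted p = 4.21e-06) and CCND1, the G1 cyclin, at 0.56 ± 0.07 (edgeR adjusted p = 4.71e-06).

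Of 12 tested EGR1 targets, 4 rose at day 7 and 2 fell, with a median of 0.14. VEGFA, which both lists hold (0.74 ± 0.08, edgeR adjusted p = 1.21e-06), and TGFB1 (0.62 ± 0.07, edgeR adjusted p = 2.81e-06) were higher. VEGFA (0.59 ± 0.09, edgeR adjusted p = 8.18e-05) and TGFB1 (0.63 ± 0.09, edgeR adjusted p = 5.62e-05) were already higher at day 3, where GDF15 was lower (-0.52 ± 0.11, edgeR adjusted p = 0.0072). From day 3 to day 7, 2 of 9 rose, among them the growth factor FGF2 (0.76 ± 0.16, edgeR adjusted p = 0.0041).

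Upstream, 2 of 4 tested ligands of the EGF receptor rose at day 7. HBEGF went from 34.0 ± 4.24 CPM (SD, n = 3) to 66.4 ± 7.70 CPM (SD, n = 4) in b2, a log2 change over both batches of 0.86 ± 0.10 (edgeR adjusted p = 4.17e-06), and TGFA had 0.78 ± 0.25 (edgeR adjusted p = 0.0344) on 3 to 48 UMIs. The TGFA call was lost on leaving out day 7 library 19 or 20 of b2, untreated library 3 of b1 or any of the 3 untreated libraries of b2 (edgeR adjusted p of 0.0569 to 0.0905), with library size alone (0.70, edgeR adjusted p = 0.0598) and without the batch term (0.02, edgeR adjusted p = 0.993). HBEGF was the called ligand at day 3 (0.64 ± 0.12, edgeR adjusted p = 0.000967). None of the 20 genes from the EGF receptor to ERK passed at day 7 over both batches, nor did any of 9 genes of SRF, its ternary complex and MRTF partners and CREB, nor either of 2 tested EGR relatives and NAB corepressors. At an unadjusted p under 0.05 these lists held 3, 1 and 0 genes, against 3713 of all 12449 genes tested. Within b2, 1 of the 20 genes from the EGF receptor to ERK rose and 2 fell. Of all 13371 genes tested there, 14.3% were called in either direction, a similar share. The called genes are named here after their values were seen: the receptor EGFR (0.63 ± 0.12, edgeR adjusted p = 0.0011), its relative ERBB2 (-0.51 ± 0.11, edgeR adjusted p = 0.0030) and the kinase MAPK3 (-0.33 ± 0.09, edgeR adjusted p = 0.0145). EGFR had 40.3 ± 8.87 CPM (SD, n = 3) without doxycycline and 62.0 ± 4.41 CPM (SD, n = 4) at day 7 in b2, but 31.3 ± 5.07 CPM (SD, n = 3) and 17.5 CPM in b1. The difference between the batches passed for EGFR (1.45 ± 0.29, edgeR adjusted p = 0.0057) and ERBB2 (-0.78 ± 0.20, edgeR adjusted p = 0.0359). In the table of day 3 and day 7, ERBB2 and MAPK3 were called again at day 7 and EGFR was not (0.50 ± 0.18, edgeR adjusted p = 0.0540). Of 14 JNK and p38 kinases 2 rose, MAP2K3 (0.67 ± 0.11, edgeR adjusted p = 0.000526) and MAPKAPK3 (0.33 ± 0.09, edgeR adjusted p = 0.0163), beside 8.43% of all genes. The MAPKAPK3 call was lost without untreated library 1 of b2 (0.26, edgeR adjusted p = 0.0866). It was also lost with library size alone (0.26, edgeR adjusted p = 0.0661) and without the batch term (0.34, edgeR adjusted p = 0.0812).

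Among 23 other tested immediate early genes 9 rose and 4 fell at day 7. DUSP1, the phosphatase that switches off JNK, p38 and ERK, rose by 1.01 ± 0.10 (edgeR adjusted p = 1.49e-06) and IER3 by 0.68 ± 0.07 (edgeR adjusted p = 2.37e-07), while PLK2 fell by 0.72 ± 0.08 (edgeR adjusted p = 2.07e-06). At day 3, 5 of 24 rose and 1 fell, among them RHOB (0.61 ± 0.09, edgeR adjusted p = 6.85e-05), CSRNP1 (0.73 ± 0.12, edgeR adjusted p = 0.000406) and CYR61 (-0.41 ± 0.07, edgeR adjusted p = 0.000878). From day 3 to day 7, 3 rose and 3 fell, with DUSP1 at 0.66 ± 0.09 (edgeR adjusted p = 1.06e-05).

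Of 11 tested other AP-1 subunits and bZIP partners, CREB5 rose (0.90 ± 0.17, edgeR adjusted p = 0.000858) and JDP2, a JUN-binding repressor, fell (-1.08 ± 0.18, edgeR adjusted p = 0.000258), both scarce genes with means of 13.0 and 11.3 CPM. Of 9 genes listed for the ATF4 stress pathway, 1 rose and 3 fell at day 7: TRIB3 by 0.82 ± 0.15 (edgeR adjusted p = 0.000928), the kinase EIF2AK2 by 0.70 ± 0.13 (edgeR adjusted p = 0.000615) and CHAC1 by 0.58 ± 0.16 (edgeR adjusted p = 0.0133). CHAC1 went from a mean of 14.7 CPM to 8.44 CPM in b2, but had 17.2 CPM and 16.7 CPM in b1. Its call was lost without untreated library 2 of b2 (-0.50, edgeR adjusted p = 0.0681) and without the batch term (-0.68, edgeR adjusted p = 0.0968). TRIB3 was the 1 called at day 3, where it fell by 1.10 ± 0.13 (edgeR adjusted p = 9.2e-07). None of 10 genes for the turnover of AP-1 mRNA and protein passed at day 7. At an unadjusted p under 0.05 there were 3, against 3713 of all 12449 genes. From day 3 to day 7 the mRNA decay factor ZFP36L1 rose (0.35 ± 0.07, edgeR adjusted p = 0.0036).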

How the data were processed

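The deposited tables hold UMI counts per gene and library, whole numbers made by the authors. Per the submitters' processing notes, bcl2fastq, cutadapt, STAR 2.4.2a, HTSeq and DESeq2 were used, with hg38 as the build. The deposited log2 fold changes and the adjusted p-values are the authors' own. Those changes divide the earlier group by the later, and their sign was turned here. A further 55 per-sample columns were not used. In the table of day 3 and day 7, the names of 2 untreated columns fit samples of either batch. Both were read as b2, since every other column there is b2.

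Genes passed edgeR's filterByExpr (12449 and 10586 tested, and 13371 for the difference between batches and the values within a batch). After TMM scaling, the robust quasi-likelihood test of edgeR (version 4.0.16, under R 4.3.3) was run, and Benjamini-Hochberg adjusted p-values over every tested gene were called below 0.05. The batch was a term for day 7. The fits were tested on simulated data. Depth was 2573290 to 5567651 and 1816599 to 4656705 UMIs per library, and the common biological coefficient of variation 0.0991 and 0.0843. Promoter motifs were counted in RefSeq windows in Python 3.11.15, and plots drawn with matplotlib 3.10.9. Alternatives were DESeq2 1.42.0, limma-voom (limma 3.58.1), other scaling and filters, no batch term, b2 alone and leaving out each library. Of each list, at most 3 called genes with the smallest p were named per comparison. For each called member with a mean of at least 20 CPM at day 7, the 2 most correlated genes were named. A gene that the rule takes is not reported here. Members, lists and tests were chosen with earlier results of these data known.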

Additional observations from a re-analysis of the deposited data

Results flagged for a closer look

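The day 7 effect differed between batches for EGR1, by the interaction test: the log2 change was 0.355 in b1 and -0.408 in b2, a difference of -0.763 (b2 minus b1, edgeR adjusted p = 0.0061). Among the named list genes, themselves picked by small p in these data, TRIB3, IL11 and IL6 also passed it. The share of all genes that passed this test is given with EGR1 above. TRIB3 differed by -1.15 (0.05 in b1, -1.10 in b2, edgeR adjusted p = 0.0061). IL11 differed by -0.846 (1.57 in b1, 0.73 in b2, edgeR adjusted p = 0.0025). IL6 differed by -1.15 (1.80 in b1, 0.65 in b2, edgeR adjusted p = 1.88e-05). EGFR differed by 1.45 (-0.83 in b1, 0.63 in b2, edgeR adjusted p = 0.0057) and ERBB2 by -0.777 (0.27 in b1, -0.51 in b2, edgeR adjusted p = 0.0359), both added after their values were seen. The b1 side of each rests on 1 day 7 library, and what sets it apart was not tested.

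Between the time points, tested directly in b2, 4 members differed in log2 change (day 7 minus day 3): FOSL1 by 0.414, JUNB by -0.498, JUND by -0.391 and ATF3 by -0.745 (edgeR adjusted p of 8.8e-05 to 0.0336).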

How the results depend on the processing

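No direction that had a call reversed under any alternative run. Without the batch term the day 7 comparison called 323 genes (1955 with it) and 2 of the 10 members (6 with it, FOSB and JUN remaining). With limma-voom the difference between batches was called for 205 genes (326 with edgeR). Leaving out 1 library at a time, day 7 calls ranged from 1405 to 1970 genes and 4 to 7 members, and day 7 against day 3 from 387 to 645 genes and 3 to 5 members. Day 3 calls ranged from 191 to 578 genes, with 0 members each time: 191, 213 and 207 without untreated library 2, 1 or 4, 229 and 228 without day 3 library 10 or 12, and 578 without day 7 library 17. The difference between batches ranged from 195 to 687 genes and 1 to 2 members: 687 without day 7 library 17 of b2, 195 and 216 without untreated library 2 or 3 of b1, and 205 without untreated library 2 of b2. JUND joined EGR1 there without day 7 library 17 of b2 (-0.64, edgeR adjusted p = 0.0121) or untreated library 1 of b2 (-0.64, edgeR adjusted p = 0.0419). The cause of these shifts was not tested. Depth limits FOS, FOSB and ATF3, which have at most 54 UMIs in any library. IL6 at day 3, TGFA and MAPKAPK3 at day 7, and HBEGF and CHAC1 from day 3 to day 7 lost their calls in several alternatives. IL6 lost it in 7 of 11 with a library left out. CHAC1 at day 7 lost its call without untreated library 2 of b2 and without the batch term. No paired analysis was possible because the untreated and the treated groups share no replicate numbers.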

Other observations

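In the day 7 table, where TUBB3 is not among the listed genes, the summed level of 6 neuron markers (3 listed: SNAP25, SYT1 and MAP2) was 10.8 to 17.2 CPM. Of 6 microglia markers CSF1R alone was listed, at 0.182 to 3.98 CPM, and it was called at day 7 (log2 change 1.51 ± 0.41, edgeR adjusted p = 0.0144, on 1 to 14 UMIs). Of 5 endothelial markers TEK and CLDN5 were listed, with a sum of 3.21 to 7.92 CPM, and of 6 oligodendrocyte lineage markers MBP and PDGFRA, with a sum of 11.6 to 19.4 CPM.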
